A study of Mus musculus and Homo sapiens with 15 samples.

Results

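The Rab genes encode small GTPases, and 52 of them carried a label in the C-to-U edit clusters of mouse brain, among 20838 labelled genes in all. A gene was taken as a member if its symbol was "Rab" followed by digits and at most 1 letter and if it labelled a cluster in at least 1 of the 9 brain libraries. Antisense transcripts such as Rab10os and the Rab-interacting proteins were left out by that rule. INSCRIBE is an in situ method in which an antibody to an RNA-binding protein, here the splicing and 3′UTR regulator RBFOX2, brings a nanobody fused to the cytidine deaminase APOBEC1 onto fixed tissue. Cytidines near the bound protein are then read as U in total RNA sequencing. There were 3 RBFOX2-INSCRIBE libraries (antibody and enzyme), 3 enzyme-only libraries (enzyme without the antibody) and 3 buffer-only libraries (neither). All 9 came from paraformaldehyde-fixed coronal brain slices of 20 µm from wild type female C57BL/6J mice aged 2 months, with 1 slice per library and slices of at most 2 mice. No group carried a mutation or transgene, and by design the groups differed in what was added to the slices. Each library was a different slice, and the labels give neither its mouse nor its level in the brain.

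Rab proteins switch between a GTP-bound form that sits on a membrane and a GDP-bound form in the cytosol. Guanine nucleotide exchange factors (GEFs) switch them on, GTPase-activating proteins (GAPs) switch them off, and GDI and REP proteins carry them to and from membranes. Each Rab marks particular membranes, such as synaptic vesicles, endosomes or the Golgi, and in neurons the family is known for vesicle release, receptor recycling and transport along axons and dendrites. RBFOX2 binds the RNA word UGCAUG, mostly in introns and 3′UTRs.

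The sequences below are those around the sites and windows on which the Rab results turn, and they are shown so that the base before the edited C and the RBFOX2 word can be read directly. Each is written 5′ to 3′ along the RNA with T for U, from GRCm38 (mm10). In the first set the capital C marks a position with a passing edit in at least 3 libraries.
Rab3c 3′UTR, chr13:110056354-110056383, minus strand: caatatttaatgaCttaCtcagtgtatata
Rab8b 3′UTR, chr9:66844835-66844864, minus strand: aagaCtatgctctttactttgaaggaCtat
Rab2a 3′UTR, chr4:8606776-8606805, plus strand: aattgtattaaaCactaCaaagtcatggtg
Rab31 3′UTR, chr17:65653564-65653593, minus strand: ggggtgatcacttcaCagagcattaggaga
Rab28 coding sequence, chr5:41698378-41698407, minus strand: tacatctatggagcaCaggtatgatgtaca
Rab12 coding sequence, chr17:66506072-66506101, minus strand: ctctgcaggtgttgaCtttaaaatcaagac
In the second set the capitals mark the RBFOX2 word, or its last 5 bases, inside windows of the RBFOX2-INSCRIBE cluster list.
Rab3c 3′UTR, chr13:110056690-110056719, minus strand: gtcagggatgtgaGCATGacctgtgtctta
Rab2a intron, chr4:8570232-8570261, plus strand: cattaccattccTGCATGcacttctgttcc

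The 9 libraries held 159087 to 281314 passing edited positions with 193252 to 339567 edited reads, and their median read cover per position was 16 to 17. A position passed if its confidence score was above 0.5 and its edit fraction below 0.8, which are the cut-offs of the authors' filter. Positions with a single edited read made up 88.4% to 91.3% of each library. Only positions with at least 1 edited read were listed, so the cover of a gene at unedited cytidines was not measured here. The marker genes of striatal neurons summed to 1830 to 2878 CPM, which is a gene's edited reads scaled to the edited reads of its library (edgeR, TMM), in the RBFOX2-INSCRIBE libraries, 1149 to 1419 in the enzyme-only libraries and 1137 to 1456 in the buffer-only libraries. Marker genes of all neurons summed to 5178 to 5773, 4419 to 4966 and 4519 to 5138 CPM, in the same order of groups, and those of oligodendrocytes to 433 to 567, 664 to 692 and 540 to 680 CPM. Astrocyte markers summed to 1904 to 2532 CPM in the RBFOX2-INSCRIBE libraries, 1925 to 2197 CPM in the enzyme-only libraries and 1526 to 1682 CPM in the buffer-only libraries, so both groups with enzyme lay above buffer-only without overlap. Of the 7 astrocyte markers, Gja1 was called between enzyme-only and buffer-only and Slc1a2 between RBFOX2-INSCRIBE and buffer-only. Of 5 striatal markers tested, Rarb and Pde10a were called between RBFOX2-INSCRIBE and enzyme-only. Between RBFOX2-INSCRIBE and buffer-only, the striatal markers Rarb, Rgs9 and Pde10a and the neuron markers Map2, Nefl and Snap25 were called. The 4 choroid plexus markers summed to 154 to 171, 165 to 191 and 153 to 166 CPM in the same order of groups, with Ttr and Folr1 at 0. The 5 red blood cell markers summed to at most 8.05 CPM in a library, with Hba-a1, Hba-a2 and Hbb-bt at 0. The part of these marker differences in the Rab values was not tested. In bulk tissue, fewer cells of a type and less RNA per cell cannot be told apart.

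Across all libraries the Rab genes held 5269 passing edited reads at 4332 positions. A single library held 95.82% of these positions, close to the 96.7% over all genes, and 11 positions passed in 3 libraries and 2 in 4. Introns took 46.54% of the edited reads, 3′UTRs 38.64%, coding sequence 9.83% and 5′UTRs 2.3%. Edited reads were unequally spread over the family, with 25.41% in the top 4 genes and 46.65% in the top 10. Of the 52 genes, 42 labelled a cluster in every library and 44 to 49 did so in each library. The test across genes took 30 of them. Of the other 22, 12 had 17 to 58 edited reads, 7 had 1 to 7, and Rab4a, Rab4b and Rab43 had 0 because every edited position of theirs also lay in another gene on the same strand.

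Labels of clusters were not always places in the gene. Of 5742 clusters labelled with a Rab gene, 4110 lay inside that gene. Rab4a, an early endosome Rab, accounted for 1599 of the clusters outside, out of 1681 labelled with its name. Rab26 had 40 of 58 and Rab43 had 72 of 87 inside, and for the other 49 genes every labelled cluster did. Rab4a had 233, 246 and 180 labelled clusters in the RBFOX2-INSCRIBE libraries, of which 11, 10 and 13 lay in the gene. It had 175, 217 and 164 in the enzyme-only libraries with 9, 7 and 11 in the gene, and 213, 127 and 126 in the buffer-only libraries with 9, 5 and 7 in the gene. Rab4a led the family by its label and not by its position. These genes were singled out after their values were seen.

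The filter on the edited positions kept very different shares of each gene's edited reads. The positions listed before the filter held 19120 edited reads of Rab genes, of which 27.56% passed. Rab3a, the most abundant synaptic vesicle Rab, had 201, 187 and 169 listed edited reads in the RBFOX2-INSCRIBE libraries, 199, 196 and 165 in the enzyme-only libraries and 196, 124 and 100 in the buffer-only libraries. Only 19 of these 1537 reads passed, and the mean cover of its listed positions was 1016 to 1723 reads. Rab6b, the neuronal Rab of Golgi transport, passed 404 of 4262 with a mean cover of 651 to 1095 reads, while Rab30, a Golgi Rab, passed 319 of 600 at a mean cover of 15.3 to 33.0 reads. Among 33 Rab genes with at least 100 listed edited reads, the share that passed ran from 1.24% in Rab3a to 100% in Rab36, with a median of 38.22%. Rab3a and Rab36 were singled out after their values were seen. The share was 28.3%, 28.8% and 30.8% in the RBFOX2-INSCRIBE libraries, 25.9%, 25.6% and 28.6% in the enzyme-only libraries and 24.4%, 25.6% and 30.4% in the buffer-only libraries, so the groups overlapped.

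Between RBFOX2-INSCRIBE and enzyme-only, the comparison that asks what the antibody added, none of the 30 Rab genes passed the test on edited reads. Over all 6357 genes tested, 0.928% (59 genes) passed an adjusted p of 0.05 by edgeR's quasi-likelihood test with Benjamini-Hochberg adjustment, with 0.912% higher and 0.0157% lower in RBFOX2-INSCRIBE (58 genes and 1 gene). At an unadjusted p under 0.05 there were 3 Rab genes and 769 genes in all, and DESeq2 also called 0 Rab genes. The median log2 fold change was 0.002 over the Rab genes and -0.008 over all genes, and 15 of the 30 Rab genes were above 0. Leaving out 1 library gave Rab medians of -0.15 (without the second RBFOX2-INSCRIBE library) to 0.036. Nothing in the labels ties a slice to its mouse, so p-values measure the spread between slices, part of which may be technical. Rab30, Rab10 and Rab3c were the 3 genes with the smallest p.

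Rab30, which acts at the Golgi, had 61, 42 and 59 edited reads in the RBFOX2-INSCRIBE libraries, 25, 37 and 24 in the enzyme-only libraries and 25, 27 and 19 in the buffer-only libraries. Scaled to library size, it averaged 202 ± 44.9 CPM in RBFOX2-INSCRIBE, 119 ± 25.9 CPM in enzyme-only and 135 ± 26.5 CPM in buffer-only libraries (SD, n = 3 each). The lowest RBFOX2-INSCRIBE library, at 153 CPM, lay just above the highest enzyme-only library, at 149 CPM, and below the highest buffer-only library, at 166 CPM. The log2 fold change against enzyme-only was 0.75 ± 0.23 (SE), with an edgeR adjusted p of 0.107. Without the second RBFOX2-INSCRIBE library it was 0.93 with an adjusted p of 0.0396, so that library decided the call, and with every listed position it was also called (0.59, adjusted p = 0.0298). With the summed read cover of its edited positions as an offset the sign turned (-0.47). That sum takes in only positions with at least 1 edited read and grows with their number. It can therefore take out part of a difference in editing, and it cannot separate editing from cover. Rab30 (ENSMUSG00000030643.14, chr7:92741603-92844535, plus strand) had edited reads in 3′UTR and introns alike. Its 3′UTR held 34, 20 and 17 in RBFOX2-INSCRIBE, 10, 16 and 11 in enzyme-only and 8, 7 and 9 in buffer-only libraries, and its introns held 24, 19 and 37, then 12, 17 and 10, then 16, 15 and 7 in the same order of groups.

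Rab10, which moves vesicles to the plasma membrane of axons and dendrites, had 43, 34 and 40 edited reads in the RBFOX2-INSCRIBE libraries, 21, 23 and 22 in the enzyme-only libraries and 16, 20 and 21 in the buffer-only libraries. Its level was 151, 124 and 163 CPM in RBFOX2-INSCRIBE, 87.1, 92.6 and 95.8 CPM in enzyme-only and 75.8, 123 and 134 CPM in buffer-only libraries. The RBFOX2-INSCRIBE and enzyme-only libraries did not overlap, whereas the RBFOX2-INSCRIBE and buffer-only libraries did. The log2 fold change was 0.66 ± 0.26 against enzyme-only (edgeR adjusted p = 0.251) and 0.43 against buffer-only libraries (adjusted p = 0.58), and with every listed position the second value was called (0.83, adjusted p = 0.000516). The summed-cover offset took the first value to 0.02 and turned the sign of the second (-1.41). In the 3′UTR the counts were 20, 10 and 25 in RBFOX2-INSCRIBE, 8, 11 and 5 in enzyme-only and 3, 1 and 7 in buffer-only libraries. The introns held 22, 20 and 14 in RBFOX2-INSCRIBE, 13, 11 and 13 in enzyme-only and 13, 14 and 10 in buffer-only libraries.

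The other strand of the same locus gave a different picture. Rab10os (ENSMUSG00000079179.9, chr12:3235504-3250377, plus strand) is an antisense transcript that overlaps the 3′ end of Rab10 (ENSMUSG00000020671.9, chr12:3247428-3309969, minus strand) over 2.95 kb, and each edited position carries its strand. It was chosen for description after its values were seen. Rab10os had 55, 61 and 40 edited reads in the RBFOX2-INSCRIBE libraries, 10, 13 and 14 in the enzyme-only libraries and 11, 7 and 6 in the buffer-only libraries. Its log2 fold change was 1.90 ± 0.28 against enzyme-only (edgeR adjusted p = 6.44e-06) and 2.09 ± 0.31 against buffer-only libraries (adjusted p = 4.81e-06). With the summed read cover of its edited positions as an offset, the value against enzyme-only was 0.27 (adjusted p = 0.999) and the one against buffer-only turned its sign (-0.21, adjusted p = 0.769). As for Rab30, this offset grows with the number of listed positions and can take out part of a difference in editing.

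Rab3c, a synaptic vesicle Rab of regulated secretion, was the gene of the family with the clearest difference between groups, and that difference separated the libraries with enzyme from those without. It had 89, 58 and 58 edited reads in the RBFOX2-INSCRIBE libraries, 47, 45 and 42 in the enzyme-only libraries and 16, 8 and 13 in the buffer-only libraries. The level averaged 253 ± 52.5 CPM in RBFOX2-INSCRIBE, 186 ± 7.59 CPM in enzyme-only and 69.2 ± 17.8 CPM in buffer-only libraries (SD, n = 3 each). No library of any group overlapped with another group. Against buffer-only, the enzyme-only libraries were higher by 1.41 ± 0.28 on the log2 scale (edgeR adjusted p = 0.00266) and the RBFOX2-INSCRIBE libraries by 1.86 ± 0.26 (adjusted p = 1.15e-06). Against enzyme-only, the RBFOX2-INSCRIBE value was 0.45 ± 0.20 with an adjusted p of 0.337. The comparisons share libraries and are not independent. The call between enzyme-only and buffer-only was lost with the mean cover of its edited positions as an offset (1.55, adjusted p = 0.213) and with their summed cover (0.64, adjusted p = 0.833). With the summed cover, the call between RBFOX2-INSCRIBE and buffer-only was lost too (0.88, adjusted p = 0.393). Listed positions of Rab3c numbered 230, 198 and 202 in RBFOX2-INSCRIBE, 216, 191 and 148 in enzyme-only and 130, 95 and 75 in buffer-only libraries. The summed cover grows with these numbers, so a call lost under it does not separate editing from cover.

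**Figure D1:**
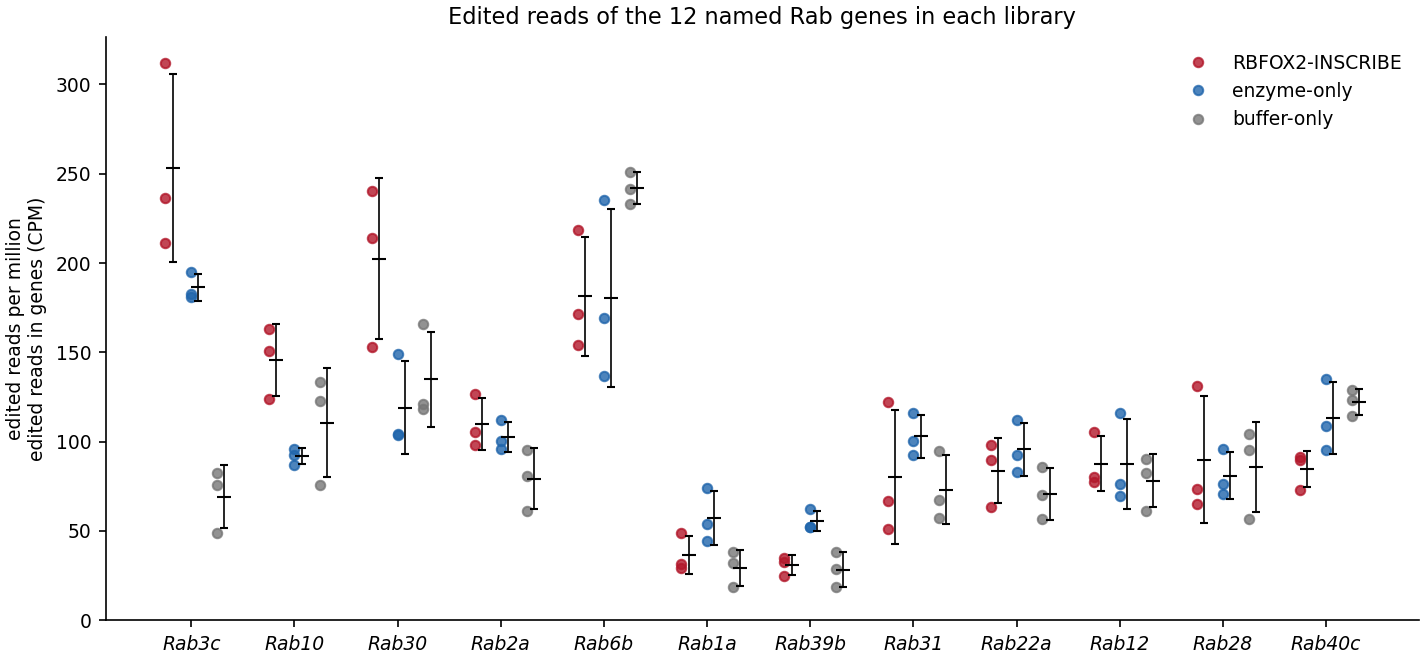
Edited reads scaled to library size (CPM, y axis) of 12 Rab genes (x axis), 1 point per library. Within each gene RBFOX2-INSCRIBE, enzyme-only and buffer-only libraries stand from left to right, with the black marks at the mean ± SD of 3 libraries. In Rab3c the groups averaged 253, 186 and 69.2 CPM with no overlap. In every other gene some of the groups overlap, and in Rab12, Rab22a, Rab28 and Rab31 all of them do.

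Rab3c was 1 of 30 Rab genes called between enzyme-only and buffer-only, where 0.661% of all genes passed and 0.283% passed as higher in enzyme-only. It was also 1 of 30 between RBFOX2-INSCRIBE and buffer-only, where 1.64% of all genes passed and 1.4% as higher. Between enzyme-only and buffer-only, the median log2 fold change of the 30 Rab genes was 0.203, against -0.012 over all genes, and 19 of the 30 were above 0. Between RBFOX2-INSCRIBE and buffer-only the medians were 0.165 and -0.018, with 22 of 30 above 0. No test was made of this shift, and single libraries moved it. Leaving out 1 library gave medians of 0.05 (without the first enzyme-only library) to 0.29 between enzyme-only and buffer-only. Between RBFOX2-INSCRIBE and buffer-only they were 0.048 (without the second buffer-only library) to 0.291 (without the first). With the summed-cover offset the Rab medians, -0.408 and -0.706, lay below those of all genes, -0.385 and -0.609. Next to Rab3c came Rab14, a Rab of endosomes and the Golgi, at 1.01 ± 0.37 between enzyme-only and buffer-only (edgeR adjusted p = 0.24), and Rab7, the Rab of late endosomes and lysosomes, at 1.02 ± 0.39 (adjusted p = 0.29). Rab14 had 28, 24 and 12 edited reads in the RBFOX2-INSCRIBE libraries, 19, 30 and 20 in enzyme-only and 9, 9 and 7 in buffer-only libraries. Both genes were named after their values were seen.

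**Figure D2:**
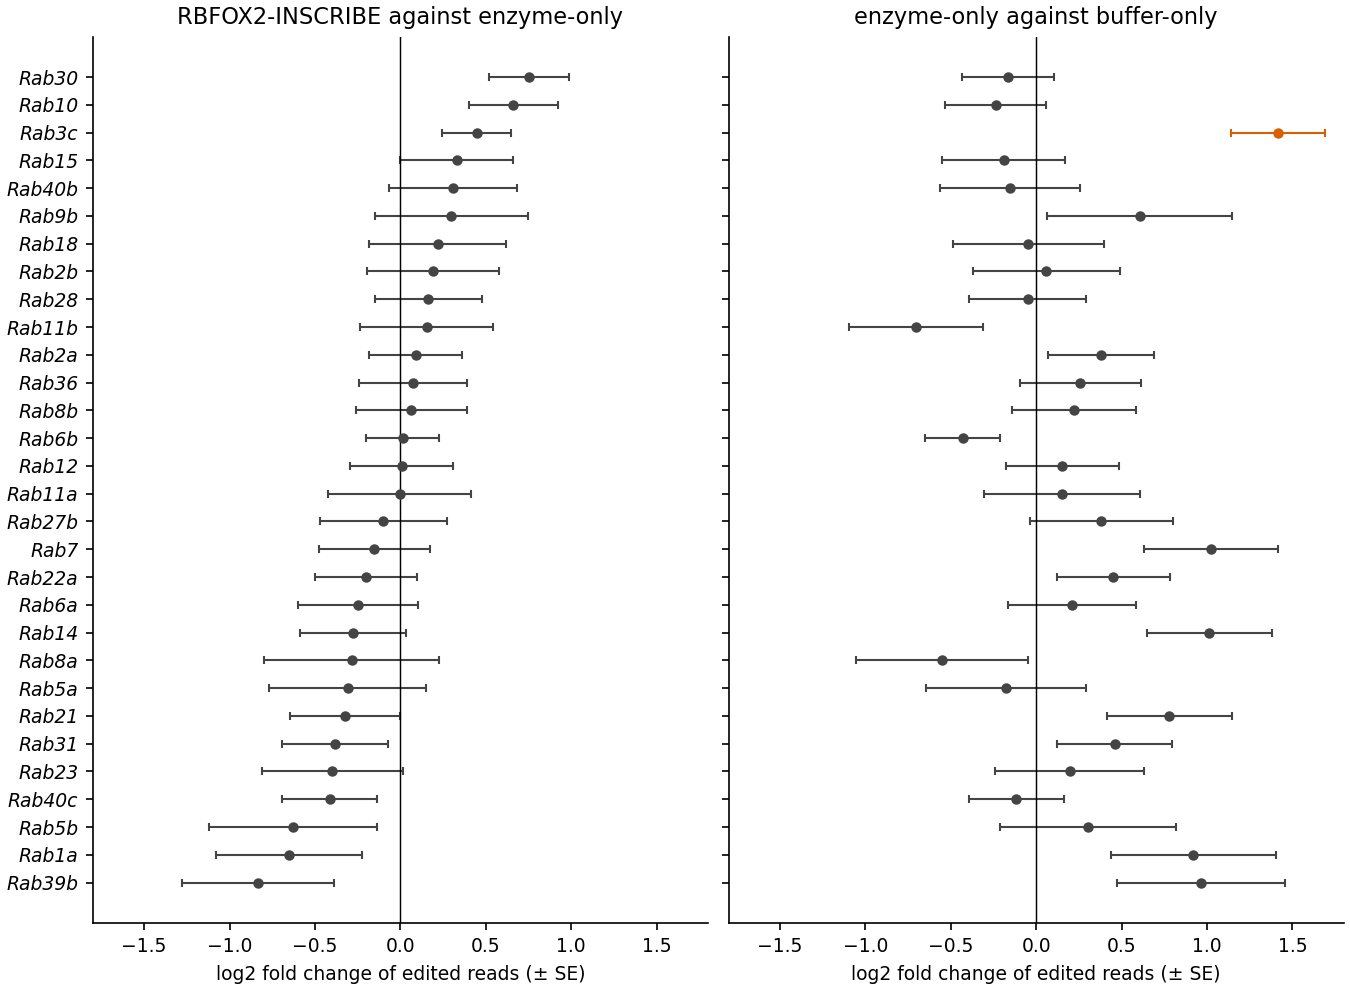
Log2 fold change in edited reads (x axis, bars are ± SE) of the 30 Rab genes tested, 1 row each, for RBFOX2-INSCRIBE against enzyme-only on the left and enzyme-only against buffer-only on the right. Orange marks an adjusted p under 0.05, which holds only for Rab3c on the right, at 1.41.

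The edited reads of Rab3c lay mostly in its long last exon. The gene (ENSMUSG00000021700.10, chr13:110054187-110280996, minus strand) has a 3′UTR of 7631 nt in that exon with UGCAUG at 227, 1908, 2252, 4609, 5080 and 5354 nt after the stop codon. The 3′UTR held 67, 29 and 43 edited reads in the RBFOX2-INSCRIBE libraries, 21, 33 and 29 in the enzyme-only libraries and 6, 0 and 8 in the buffer-only libraries. Its introns held 18, 26 and 15 in RBFOX2-INSCRIBE, 26, 12 and 11 in enzyme-only and 9, 8 and 5 in buffer-only libraries. Before scaling to library size, every library with enzyme had more than any buffer-only library in both parts of the gene. Buffer-only libraries were smaller, with 163412 to 217387 edited reads in tested genes against 223108 to 282958, so the close intron counts do not show a separation at equal library size. Within 100 nt of a UGCAUG, which is 15.8% of the 3′UTR, there were 41, 16 and 20 edited reads in the RBFOX2-INSCRIBE libraries, 15, 13 and 9 in enzyme-only and 0 in each of the buffer-only libraries. As a share of the 3′UTR reads this was 61.2%, 55.2% and 46.5% in RBFOX2-INSCRIBE and 71.4%, 39.4% and 31.0% in enzyme-only libraries, which overlapped.

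**Figure D3:**
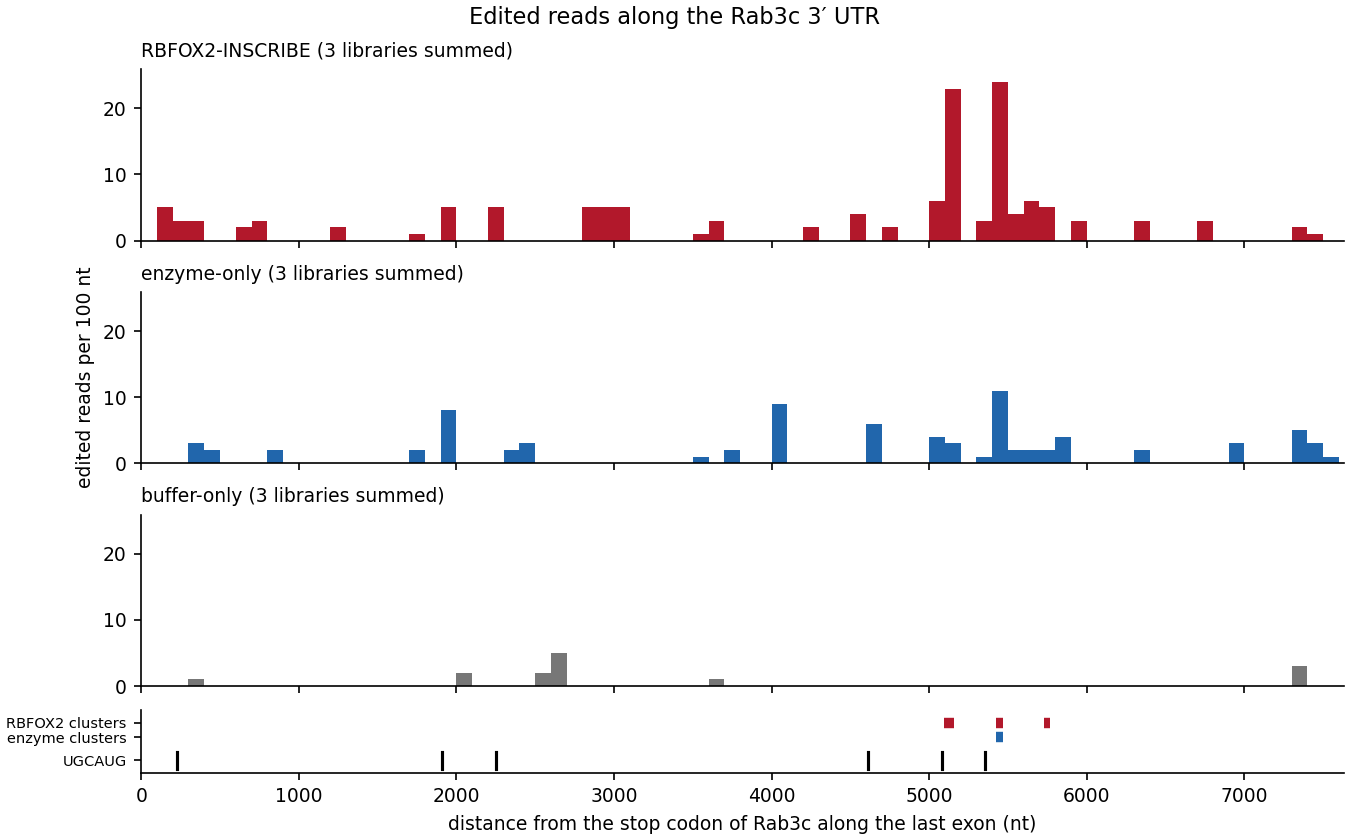
Edited reads of Rab3c per 100 nt (y axis) by distance from the stop codon along its 3′UTR (x axis, nt), for RBFOX2-INSCRIBE, enzyme-only and buffer-only libraries from top to bottom, with a track of UGCAUG words and cluster windows underneath. Reads are densest around the windows from 5096 to 5155 and 5426 to 5470 nt in RBFOX2-INSCRIBE libraries, while the 3 buffer-only libraries had 6, 0 and 8 reads over the whole 3′UTR.

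Among the windows called in this 3′UTR, the one from 5726 to 5770 nt after the stop codon (chr13:110056048-110056092) had few passing edited reads. It had 0, 2 and 1 in the RBFOX2-INSCRIBE libraries and 0 in each enzyme-only and buffer-only library. Another window had nearly all its passing edited reads in the libraries with antibody. Edited reads that did not pass were not counted in these windows. Between 5096 and 5155 nt after the stop codon (chr13:110056663-110056722), where GCATG stands in the sequence printed above, there were 12, 6 and 5 edited reads in the RBFOX2-INSCRIBE libraries, 3, 0 and 0 in enzyme-only and 0 in each of the buffer-only libraries. The window from 5426 to 5470 nt (chr13:110056348-110056392) had 9, 4 and 8 in RBFOX2-INSCRIBE and 3, 3 and 5 in enzyme-only, with 0 in each of the buffer-only libraries, and was on both groups' cluster lists. It holds the pair of cytidines marked in the first Rab3c sequence, both after an A. Position 110056370 was edited in 5 of 264, 4 of 273 and 4 of 189 reads in RBFOX2-INSCRIBE libraries, and in 1 of 206 and 5 of 191 reads in the first and the third enzyme-only library. At 110056366 the counts were 4 of 262, 1 of 274 and 4 of 185 in RBFOX2-INSCRIBE and 3 of 207, 3 of 260 and 1 of 190 in enzyme-only libraries, and neither position was listed in a buffer-only library. The windows were picked by the authors' calls on these same libraries, so their counts are a description.

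The authors' cluster lists were made by intersecting the windows called in the replicates of a group. A listed window need not hold a passing edited read in each replicate, since 8 of the 18 Rab windows inside the gene on the RBFOX2-INSCRIBE list described next, and 9 of 21 on the enzyme-only list, had 0 in at least 1 replicate of their own group. With the windows of the buffer-only list removed, 24 of 5031 RBFOX2-INSCRIBE windows carried a Rab label, and 18 of them lay inside the gene, in 12 genes. By place, 13 of the 18 were in 3′UTRs, 4 in introns and 1 in another exon. The word UGCAUG stood in 1 of them, the Rab2a intron window (chr4:8570179-8570283) printed above, which had 3, 1 and 3 edited reads in the RBFOX2-INSCRIBE libraries, 0, 0 and 2 in enzyme-only and 0 in each of the buffer-only libraries. Enzyme-only libraries had 22 labelled windows among 4401, 21 inside the gene, in 17 genes, with 17 in 3′UTRs and 0 holding UGCAUG. Only the Rab3c window from 5426 to 5470 nt was on both lists, and the other 6 labelled RBFOX2-INSCRIBE windows outside a gene were all of Rab4a. The buffer-only list held 3 Rab windows among 2092.

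Several windows rested on few reads or on 1 library, and those named here were picked after their counts were seen. The lowest counts on the RBFOX2-INSCRIBE list were 0, 0 and 1 in a window of Rab21 and in one of Rab15, and both Rab10 windows had 1, 0 and 1. A window in the 3′UTR of Rab31, an endosome and Golgi Rab, had 3, 1 and 10 edited reads in the RBFOX2-INSCRIBE libraries and 0 in all enzyme-only and buffer-only libraries. The Rab8b window, in a Rab of transport to the plasma membrane and cilium, had 3 in each RBFOX2-INSCRIBE library, 0, 1 and 0 in enzyme-only and 0 in each of the buffer-only libraries. On the enzyme-only list, the 3′UTR window of Rab2a around its printed sequence had 0 passing edited reads in every RBFOX2-INSCRIBE library. It had 4 in each enzyme-only library and 0, 0 and 2 in the buffer-only libraries. Edited reads that did not pass were listed there with the antibody. Position 8606788 had 1 of 83 and 1 of 95 in the first and second RBFOX2-INSCRIBE library, beside 1 of 67, 1 of 79 and 1 of 64 in enzyme-only. At 8606793 the second RBFOX2-INSCRIBE library had 1 of 90, beside 1 of 63, 2 of 77 and 2 of 63 in enzyme-only. Rab2a, which acts between the Golgi and the endoplasmic reticulum, thus had an intron window on one list and a 3′UTR window on the other.

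Recurrence of single positions was rare, and no position passed in all 9 libraries. The 13 positions that passed in at least 3 libraries lay in 8 genes, and those in Rab8b, Rab21, Rab31 and Rab40b were all in 3′UTRs. Rab12, a Rab of recycling endosomes and lysosomes, had a coding position (66506086 on chromosome 17) that passed in 1 library of each group and was edited in 3 of 139 reads at its highest among buffer-only libraries. A position of Rab28, a Rab of cilia, in coding sequence passed in 2 RBFOX2-INSCRIBE libraries and 1 enzyme-only library. The first marked cytidine of the Rab8b sequence, 66844860, passed in all 3 RBFOX2-INSCRIBE libraries with 1 edited read each (cover 47, 40 and 33) and in no other library. The same held for position 66505118 of Rab12, in another exon, with 1 edited read each (cover 18, 31 and 18).

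The remaining genes with the most edited reads did not pass in any comparison at the passing positions. Rab6b had 44, 60 and 42 edited reads in the RBFOX2-INSCRIBE libraries, 33, 42 and 54 in the enzyme-only libraries and 53, 38 and 38 in the buffer-only libraries. It averaged 180.3 ± 50.03 CPM in enzyme-only and 241.9 ± 9.06 CPM in buffer-only libraries (log2 fold change -0.43 ± 0.22, edgeR adjusted p = 0.471). Rab40c, an atypical Rab that joins a ubiquitin ligase, averaged 84.5 ± 10.2 CPM in RBFOX2-INSCRIBE, 113 ± 20.1 CPM in enzyme-only and 122 ± 7.21 CPM in buffer-only libraries. Its RBFOX2-INSCRIBE libraries, at up to 91.2 CPM, lay below all others, and the log2 fold change against enzyme-only was -0.41 ± 0.28 (adjusted p = 0.598), which became 0.20 at positions covered by at least 20 reads. Rab2a averaged 110 ± 14.6 CPM in RBFOX2-INSCRIBE, 103 ± 8.35 CPM in enzyme-only and 79.1 ± 17.1 CPM in buffer-only libraries, with no overlap between enzyme-only and buffer-only libraries (log2 fold change 0.38, adjusted p = 0.72). With every listed position Rab2a was called in both comparisons with buffer-only libraries.

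Rab39b and Rab1a were the genes with the smallest p among those lower with the antibody. Rab39b, whose loss causes intellectual disability with parkinsonism in people, had 10, 9 and 6 edited reads in the RBFOX2-INSCRIBE libraries, 15, 13 and 12 in the enzyme-only libraries and 6, 3 and 6 in the buffer-only libraries. The highest RBFOX2-INSCRIBE library, at 35.1 CPM, lay below the lowest enzyme-only library, at 52.2 CPM, and the log2 fold change was -0.83 ± 0.45 (edgeR adjusted p = 0.455). Rab1a, the Rab of transport from the endoplasmic reticulum to the Golgi, had 9, 8 and 12 edited reads in the RBFOX2-INSCRIBE libraries, 13, 11 and 17 in enzyme-only and 8, 3 and 5 in buffer-only libraries (-0.65 ± 0.43 against enzyme-only, adjusted p = 0.592). Rab31 had 19, 14 and 30 in RBFOX2-INSCRIBE, 28, 23 and 23 in enzyme-only and 20, 11 and 9 in buffer-only libraries. Rab12, Rab22a and Rab28 averaged 87.6, 83.7 and 90.0 CPM in RBFOX2-INSCRIBE, 87.4, 95.8 and 80.9 CPM in enzyme-only and 78.0, 70.9 and 85.5 CPM in buffer-only libraries, and the groups of each gene overlapped.

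By role, Rab3c was the only gene called in any group of Rabs, in both comparisons with buffer-only libraries. Of 9 early endosome Rabs 6 were tested, and 0 of these were above 0 between RBFOX2-INSCRIBE and enzyme-only (median log2 fold change -0.32), while 5 of 6 were above 0 between enzyme-only and buffer-only (median 0.46). Both comparisons use the same enzyme-only libraries. Of 14 Rabs of the endoplasmic reticulum and Golgi 9 were tested, with 6 above 0 in each of these comparisons and medians of 0.08 and 0.21. Recycling Rabs (6 of 8 tested) had medians of 0.11 and -0.21. Late endosome Rabs (3 of 8 tested) had 0.01 and 0.61. Only 2 of 8 synaptic Rabs could be tested, 1 of them Rab3c.

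Exonic edited reads per kb of exon, summed over the 9 libraries, were highest in Rab10 (31.31), Rab31 (28.85) and Rab8b (28.31). Rab3c had 20.42, Rab30 16.8, Rab1a 10.27 and Rab6b 3.18. Per kb of intron, Rab24 had 10.58 with 17 edited reads in all. Among the genes tested Rab6b led with 5.67, beside 5.66 in Rab15 and 5.0 in Rab12, and Rab3c had 0.61. Rab24 and Rab15 were named after their values were seen. Close relatives also differed in the part of the gene that was edited. Introns held 79.9% of the edited reads in Rab2a and 9.73% in Rab2b, and 34.57% in Rab3c against 2.56% in Rab3b. The share was 96.04% in Rab6b and 68.94% in Rab6a. The pairs were chosen after their values were seen, and the shares also depend on which positions passed the filter.

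**Figure D4:**
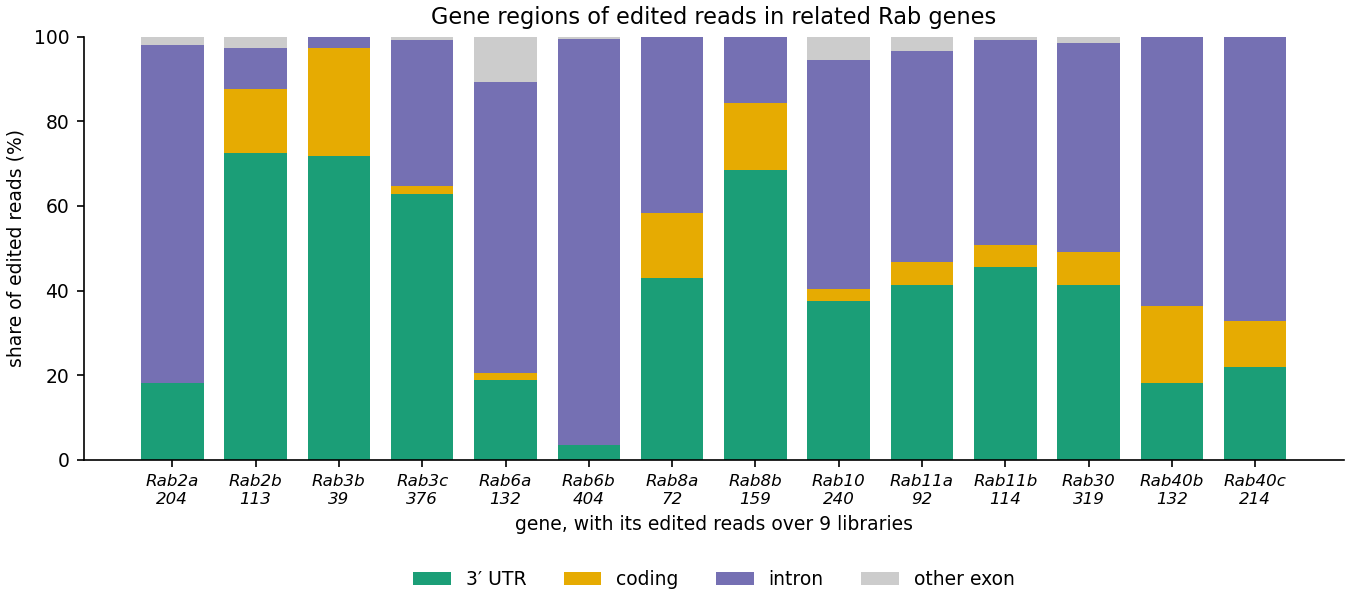
Share of passing edited reads (y axis, %) in 3′UTR, coding sequence, intron and other exon for 14 related Rab genes, pooled over 9 libraries, with the number of edited reads under each name. Rab6b has 96.04% in introns and Rab2b 9.73%.

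Over the family as a whole, the number of clusters labelled with a Rab gene was 776, 806 and 662 in the RBFOX2-INSCRIBE libraries, 649, 697 and 618 in the enzyme-only libraries and 662, 437 and 435 in the buffer-only libraries. RBFOX2-INSCRIBE and enzyme-only libraries overlapped (means 748 and 654.7, two-sided exact permutation p = 0.2). The smallest p that 3 against 3 libraries can give is 0.1, so no library measure could pass 0.05, and 12 such comparisons were made. The clusters inside the gene numbered 549, 563 and 494 in RBFOX2-INSCRIBE, 477, 485 and 461 in enzyme-only and 455, 314 and 312 in buffer-only libraries. As a share of each library's edited bases in clusters, Rab labels held 0.343%, 0.322% and 0.336% in RBFOX2-INSCRIBE, 0.338%, 0.342% and 0.320% in enzyme-only and 0.307%, 0.281% and 0.278% in buffer-only libraries. The share did not overlap between enzyme-only and buffer-only (exact permutation p = 0.1), and RBFOX2-INSCRIBE overlapped with enzyme-only (p = 0.9).

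The sequence before the edited C separated libraries with enzyme from those without. APOBEC1 prefers an A or U there. In Rab genes 68.6%, 58.5% and 69.3% of passing positions followed A or U in RBFOX2-INSCRIBE, 64.9%, 67.5% and 64.9% in enzyme-only and 49.7%, 54.3% and 54.1% in buffer-only libraries. The enzyme-only libraries were higher than buffer-only by 13.1 percentage points (exact permutation p = 0.1, the smallest possible), and RBFOX2-INSCRIBE differed from enzyme-only by -0.289 points (p = 1). All genes had 65.0%, 61.5% and 65.8% in RBFOX2-INSCRIBE, 60.9%, 62.3% and 63.1% in enzyme-only and 52.5%, 51.8% and 51.7% in buffer-only libraries.

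The edit fraction and the intronic share also set enzyme-only apart from buffer-only libraries. The edit fraction at Rab positions was 3.49%, 4.003% and 3.76% in RBFOX2-INSCRIBE, 3.64%, 3.68% and 3.81% in enzyme-only and 4.70%, 4.45% and 4.405% in buffer-only libraries, so the enzyme-only libraries were lower than buffer-only (exact permutation p = 0.1). With every listed position counted the difference turned its sign (0.0379 percentage points). Median cover at the passing Rab positions was 19, 18 and 15 reads in enzyme-only and 14 in each of the buffer-only libraries, and the part of cover in the difference was not tested. Over all genes the edit fraction was also lower, at 4.28% to 4.43% in the enzyme-only libraries and 4.52% to 4.67% in the buffer-only libraries. Intronic positions made up 50.2%, 58.9% and 46.1% in RBFOX2-INSCRIBE, 42.0%, 44.8% and 46.9% in enzyme-only and 61.6%, 54.3% and 51.6% in buffer-only libraries. The enzyme-only share was below that of buffer-only without overlap (-11.25 points, exact permutation p = 0.1). RBFOX2-INSCRIBE was 7.18 points above enzyme-only with overlap (exact permutation p = 0.2).

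The share of Rab clusters with UGCAUG did not separate the groups. The word stood in 3.35%, 2.11% and 2.42% of Rab-labelled clusters in RBFOX2-INSCRIBE, 2.77%, 1.87% and 2.10% in enzyme-only and 1.36%, 1.83% and 3.22% in buffer-only libraries, and all groups overlapped (RBFOX2-INSCRIBE minus enzyme-only 0.378 points, exact permutation p = 0.5). Over all clusters the share was 2.59%, 2.42% and 2.63% in RBFOX2-INSCRIBE, 1.57%, 1.62% and 1.62% in enzyme-only and 1.55%, 1.502% and 1.46% in buffer-only libraries, without overlap between RBFOX2-INSCRIBE and the others. Rab-labelled clusters with the word numbered only 8 to 26 per library. Inside the gene the shares were 3.64%, 2.66% and 2.43% in RBFOX2-INSCRIBE and 2.94%, 2.06% and 2.17% in enzyme-only libraries. In buffer-only libraries they were 1.54%, 1.59% and 3.53%, and all groups overlapped there too. The difference between Rab clusters and all clusters was not tested. UGCAUG was present somewhere in the 3′UTR of 28 of the 52 genes and in the body of 47.

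**Figure D5:**
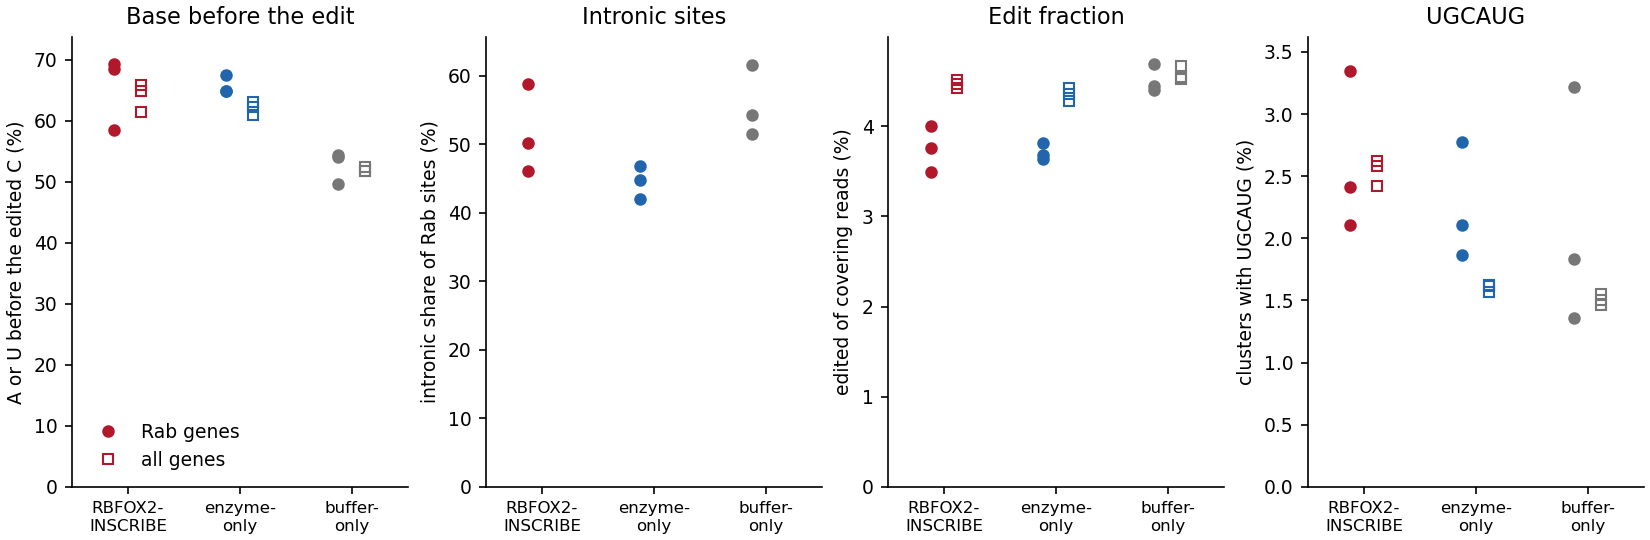
Library values of the Rab genes (filled circles) and of all genes (open squares, all clusters for UGCAUG, none for the intronic share) for the share of positions after A or U, the intronic share, the edit fraction and the share of clusters with UGCAUG (y axes, %), with RBFOX2-INSCRIBE, enzyme-only and buffer-only from left to right. Buffer-only Rab values lie lowest for A or U (49.7% to 54.3%) and highest for the edit fraction (4.405% to 4.70%), and the UGCAUG share of Rab clusters overlaps between groups.

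The proteins that act on Rabs were tested in the same fit. None of the tested genes passed in any comparison in 4 lists, namely GEFs (26 of 38 tested), GAPs (31 of 37), effectors (38 of 54), and a mixed list of membrane delivery, prenylation and phosphorylation of Rabs (4 of 10, namely Gdi2, Chm, the kinase Lrrk2 and the phosphatase Ppm1h). Their median log2 fold changes between RBFOX2-INSCRIBE and enzyme-only were 0.06, -0.01, 0.00 and 0.15 in that order. The smallest p belonged to effectors of the presynaptic active zone. Rims2, a Rab3 effector that primes synaptic vesicles, had 215, 219 and 202 edited reads in the RBFOX2-INSCRIBE libraries, 140, 118 and 157 in enzyme-only and 153, 105 and 88 in buffer-only libraries, a log2 fold change of 0.45 ± 0.14 against enzyme-only (edgeR adjusted p = 0.089). It passed without the third enzyme-only library (0.58, adjusted p = 0.0404) and with every listed position (0.47, adjusted p = 0.00788). Erc2, a scaffold of the same zone, had 572, 658 and 483 in RBFOX2-INSCRIBE, 380, 419 and 426 in enzyme-only and 462, 325 and 357 in buffer-only libraries (0.32 ± 0.10, adjusted p = 0.126). These counts are before scaling, and the buffer-only libraries were smaller. After scaling, Erc2 was also lower in enzyme-only than in buffer-only libraries (log2 fold change -0.335 ± 0.106, edgeR adjusted p = 0.155). Between RBFOX2-INSCRIBE and enzyme-only, Erc2 passed with every listed position (0.32, adjusted p = 0.0426). The same comparison passed at positions covered by at least 20 reads (1.04, adjusted p = 0.0109). With the summed-cover offset the signs of both genes turned (-0.116 for Rims2 and -0.067 for Erc2).

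Among the other regulators, the GAP Tbc1d23 had 40, 20 and 31 edited reads in the RBFOX2-INSCRIBE libraries, 20, 16 and 12 in enzyme-only and 19, 13 and 11 in buffer-only libraries (0.76 ± 0.31 against enzyme-only, edgeR adjusted p = 0.259, and -0.57 with the summed-cover offset). The GAPs Tbc1d30 and Tbc1d25 went opposite ways against enzyme-only, at 0.652 ± 0.275 (adjusted p = 0.286) and -1.185 ± 0.585 (adjusted p = 0.402). The effector Gcc2 had 0.648 ± 0.298 (adjusted p = 0.347). Gapvd1, a GEF of Rab5, had 32, 39 and 24 in RBFOX2-INSCRIBE, 48, 50 and 25 in enzyme-only and 23, 34 and 23 in buffer-only libraries (-0.53 ± 0.25, adjusted p = 0.364). The GEFs Dennd1b and Madd had 0.477 ± 0.297 (adjusted p = 0.569) and 0.376 ± 0.249 (adjusted p = 0.594) against enzyme-only. Lrrk2, the kinase that phosphorylates several Rabs, had 45, 60 and 44 in RBFOX2-INSCRIBE, 33, 33 and 31 in enzyme-only and 39, 23 and 13 in buffer-only libraries (adjusted p = 0.426 against enzyme-only). The RBFOX2-INSCRIBE libraries of Lrrk2 had more edited reads than any other only before scaling to library size. Buffer-only libraries were smaller, and after scaling they overlapped with RBFOX2-INSCRIBE (log2 fold change 0.404 ± 0.245, edgeR adjusted p = 0.554). Of the GDI and REP proteins, the log2 fold change was 0.22 for Gdi2 and 0.07 for Chm, which encodes REP1.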

How the data were processed

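The 9 brain libraries were Illumina stranded total RNA libraries depleted of rRNA. The authors trimmed reads with cutadapt, removed repeats, aligned them to mm10 with STAR 2.5.2, called C-to-U sites with SAILOR (read counts and a confidence score per site, known SNPs dropped) and called clusters with FLARE at an FDR of 0.1, merged within 15 nt. The deposited site files hold these edited read counts, cover as a signal and the score, and the deposited cluster lists keep windows shared by replicates. The HEK293T files were not used here.

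Passing sites (score above 0.5, fraction below 0.8) were assigned by strand to GENCODE vM21 genes (GRCm38), and sites in more than 1 gene were left out. Edited reads per gene were tested in 1 edgeR 4.0.16 quasi-likelihood fit over 9 libraries (R 4.3.3, TMM, low-count filter, Benjamini-Hochberg adjusted p under 0.05). Library measures used exact two-sided permutation tests. DESeq2 1.42.0 ran on the same genes. The tests were checked on simulated data. Tables were handled with Python 3.11.15 and pandas 2.3.3.

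Named were Rab3c, Rab10, Rab genes called in any comparison, the 10 with most edited reads, the 6 with the smallest p against enzyme-only, those with an RBFOX2-INSCRIBE window holding UGCAUG, and for the lists the called genes and the 3 with the smallest p. Members and lists were chosen with earlier results of these data known. Alternatives covered the filters, scaling, offsets, cluster measures and leaving out each library.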

Additional observations from a re-analysis of the deposited data

How the results depend on the processing

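Deviations of the genes from their group mean were hardly correlated between same-numbered libraries (-0.0543 to 0.0896). Low counts per gene can also give such small values, so they cannot show whether same-numbered slices were paired. With the replicate number as a block, 65, 46 and 109 genes were called in the 3 comparisons (RBFOX2-INSCRIBE against enzyme-only, enzyme-only against buffer-only, RBFOX2-INSCRIBE against buffer-only), among them 0, 1 and 1 Rab genes, as without it (59, 42 and 104 genes). With every listed site, 162, 131 and 315 genes were called, with 1 Rab gene (Rab30, log2 0.59, edgeR adjusted p = 0.0298), 2 (Rab2a, Rab3c) and 3 (Rab10, Rab2a, Rab3c). Without RBFOX2-INSCRIBE replicate 2, 1 Rab gene (Rab30) was called against enzyme-only. Leaving out each library gave 0 to 1, 1 to 1 and 1 to 1 Rab genes and 26 to 68, 11 to 35 and 40 to 140 genes. Mean cover as an offset left 5, 4 and 14 genes with 0 Rab genes between enzyme-only and buffer-only. Summed cover left 1, 0 and 5 genes with 0 Rab genes in both comparisons with buffer-only. It moved the median log2 fold change of all genes to -0.228, -0.385 and -0.609. Since this sum grows with the number of listed edited positions, it can take out part of a difference in editing. DESeq2 called 25, 14 and 45 genes, with 0, 1 and 1 Rab genes. With its default filtering 0 of 30 Rab genes had an adjusted p in the first and the second comparison. A cover of at least 20 left 15 genes between enzyme-only and buffer-only, and edited bases of clusters gave 154 and 173 genes in the first and the third. Over all alternatives Rab3c had log2 0.62 to 2.16 for enzyme-only against buffer-only (adjusted p 0.000678 to 0.833) and 0.72 to 2.87 for RBFOX2-INSCRIBE against buffer-only (1.22e-09 to 0.393).

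With summed cover, signs reversed for Rab30 (-0.47 against enzyme-only, -0.81 against buffer-only), Rims2 (-0.12), Erc2 (-0.067), Tbc1d23 (-0.57) and Rab10 against buffer-only (-1.41, and -0.04 with mean cover), and with a cover of at least 20 for Rab40c (0.20). For RBFOX2-INSCRIBE minus enzyme-only, the sign also reversed for clusters as a share of all (-0.00461), for the share of edited bases (-0.00408 as edited reads, -0.00571 without Rab4a, -0.00497 in the gene, -0.00628 to 0.00644 leaving out a library), for the edit fraction (-0.00668 with every site, -0.0869 to 0.169 leaving out a library) and for A or U before the C (0.900 with every site, 0.414 weighted by reads, -2.2 to 3.17 leaving out a library). For enzyme-only minus buffer-only it reversed for the edit fraction with every site (0.0379) and for the motif as GCAUG (-0.473, and -0.277 to 0.652 for UGCAUG leaving out a library). The cause of these changes was not tested. Other ranges without 1 library were 64.3 to 136 and 105 to 219 for clusters, 0.0393 to 0.0536 for edited bases, -0.863 to -0.717 for the edit fraction, 11.6 to 13.9 for A or U, 3.62 to 9.98 and -13.4 to -8.37 for introns and 0.0157 to 0.641 for UGCAUG. A stricter cluster p was not run, since the cluster files used here hold none, and a score of at least 0.99 was used in its place, chosen after seeing the files, as was the limit to clusters inside the gene.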
